A study of Mus musculus with 6 samples.

Results

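CpG island shores and shelves are the CpG-poor flanks of CpG islands, and 41300 of their CpGs could be measured in all 6 libraries of this mouse neocortex data set, out of 534921 autosomal CpGs (7.72%). Density was the number of CpGs, the CpG included, that at least 1 library listed from 250 bp before to 250 bp after it. A CpG was sparse at a density of 10 or less and an island CpG at a density over 20. Sparse CpGs 1 to 2000 bp from the nearest island CpG formed the shores (29587 CpGs) and those at 2001 to 4000 bp the shelves (11713 CpGs). The 329638 sparse CpGs beyond 4000 bp served as the reference and are called distant. The methylation level, used throughout, is the percent of reads that kept a cytosine at a CpG after bisulfite treatment.

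The assay was RRBS, reduced representation bisulfite sequencing. DNA is cut with MspI at CCGG sites and the short fragments are read, so CpG-rich sequence is sampled more densely than the rest. Neocortex was taken at postnatal day 5 from 3 samples labelled wild type (WT) and 3 labelled Chd8+/-, mice heterozygous for the chromatin remodeller gene Chd8. The design asks how DNA methylation in the neocortex differs in this model of CHD8-related neurodevelopmental disorder. The labels give no strain, sex or allele, and do not tie each sample to its own animal. The p-values therefore reflect only how these 6 samples scatter, and that scatter may be technical. The assay holds no RNA and the labelled tissue and genotype were not checked against the data.

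Most mammalian CpG islands are kept free of DNA methylation and many hold gene promoters, whereas scattered CpGs elsewhere are mostly methylated. Shores are the zone in which one state gives way to the other, and shelves lie outside them. Methylation that varies between tissues, and between normal and diseased cells, is known to lie often in shores rather than in the islands.

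The promoters below belong to genes with low, mixed or high shore levels in these samples, and to Cux1, shown for its genotype groups. They are printed so that their CpG content can be set beside the level of the shores. For Kmt2a, Emx1, Tet1 and Cux1 the shore was every shore CpG within 4000 bp of the start, whichever island it flanked. Nkx1-1 (a homeobox transcription factor), Kmt2a (a histone methyltransferase) and Emx1 (a homeobox transcription factor of the dorsal forebrain) had nearly unmethylated shores. Eif2b1 (a translation initiation factor subunit) and Trmt5 (a transfer RNA methyltransferase) had almost fully methylated shores. Tet1, which oxidises methylated cytosine, had a mixed one, and Cux1, a homeobox factor of upper-layer neurons, had separate genotype groups. Each sequence holds the 250 bases before the start site, 5′ to 3′ in the direction of the gene, with every CpG in capitals.
Nkx1-1: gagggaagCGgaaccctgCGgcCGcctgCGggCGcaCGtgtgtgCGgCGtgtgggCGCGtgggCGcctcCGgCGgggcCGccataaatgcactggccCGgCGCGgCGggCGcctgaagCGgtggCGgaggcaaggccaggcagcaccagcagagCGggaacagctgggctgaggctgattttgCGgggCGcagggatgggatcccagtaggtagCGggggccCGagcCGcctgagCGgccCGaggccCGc
Kmt2a: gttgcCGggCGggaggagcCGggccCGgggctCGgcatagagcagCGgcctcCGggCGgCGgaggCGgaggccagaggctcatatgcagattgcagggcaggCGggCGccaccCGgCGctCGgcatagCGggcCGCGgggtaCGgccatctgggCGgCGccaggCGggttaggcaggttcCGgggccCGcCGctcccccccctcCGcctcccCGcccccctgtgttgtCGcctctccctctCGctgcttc
Emx1: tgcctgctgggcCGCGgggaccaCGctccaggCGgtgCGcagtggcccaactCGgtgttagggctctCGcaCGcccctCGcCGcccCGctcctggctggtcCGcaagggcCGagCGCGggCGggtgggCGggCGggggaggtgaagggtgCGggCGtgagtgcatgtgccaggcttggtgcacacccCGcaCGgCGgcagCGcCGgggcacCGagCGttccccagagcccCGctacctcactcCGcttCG
Eif2b1: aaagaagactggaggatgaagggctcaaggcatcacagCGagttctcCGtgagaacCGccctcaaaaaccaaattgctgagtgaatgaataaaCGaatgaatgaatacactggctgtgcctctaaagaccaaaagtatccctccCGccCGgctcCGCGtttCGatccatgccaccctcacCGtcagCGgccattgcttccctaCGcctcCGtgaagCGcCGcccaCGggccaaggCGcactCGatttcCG
Trmt5: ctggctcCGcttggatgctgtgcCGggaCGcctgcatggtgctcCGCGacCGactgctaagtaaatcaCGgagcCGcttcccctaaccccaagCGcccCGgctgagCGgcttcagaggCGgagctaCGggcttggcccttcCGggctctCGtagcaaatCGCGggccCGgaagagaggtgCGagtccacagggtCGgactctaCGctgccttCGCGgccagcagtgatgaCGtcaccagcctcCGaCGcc
Tet1: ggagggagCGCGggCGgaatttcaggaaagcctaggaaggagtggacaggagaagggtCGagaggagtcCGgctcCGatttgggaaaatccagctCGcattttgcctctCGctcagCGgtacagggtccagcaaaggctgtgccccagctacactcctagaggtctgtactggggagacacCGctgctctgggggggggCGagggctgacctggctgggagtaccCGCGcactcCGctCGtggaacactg
Cux1: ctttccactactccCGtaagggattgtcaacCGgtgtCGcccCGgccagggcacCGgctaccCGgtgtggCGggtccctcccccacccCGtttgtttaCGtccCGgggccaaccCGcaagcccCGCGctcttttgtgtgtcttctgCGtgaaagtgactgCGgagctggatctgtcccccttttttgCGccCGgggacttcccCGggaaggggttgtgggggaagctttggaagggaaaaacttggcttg

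The sequences are RefSeq's for build GRCm38.p6. Each was located among the mm39 CpGs of the libraries only by the spacing of its CpGs. The windows so found were chr5:33591435-33591684 (minus strand) for Nkx1-1, chr9:44792588-44792837 (minus strand) for Kmt2a and chr6:85164663-85164912 (plus strand) for Emx1. They were chr5:124717195-124717444 (minus strand) for Eif2b1, chr12:73333486-73333735 (minus strand) for Trmt5, chr10:62723104-62723353 (minus strand) for Tet1 and chr5:136594836-136595085 (minus strand) for Cux1. The promoters of Nkx1-1 and Emx1 each held 30 CpGs and that of Kmt2a 29. Those of Trmt5, Eif2b1, Cux1 and Tet1 held 26, 19, 18 and 15. All RefSeq promoters of this length had a median of 6 CpGs, and the promoters that could be placed had a median of 21. G and C made up 75.2% of the Nkx1-1 promoter and 55.6% of the Eif2b1 promoter. The observed number of CpGs relative to that from base composition was 0.885 in Nkx1-1 and 1.01 in Eif2b1. The MspI site CCGG, a palindrome searched without overlap with other motifs, occurred at least once in each of the 7 promoters, in 98.7% of the promoters that could be placed and in 47.1% of all RefSeq promoters of this length. These genes were picked for display after their shore levels had been seen.

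Members lay next to 8214 of 10708 autosomal islands (76.7%), where an island is a run of island CpGs with gaps of at most 500 bp. An island had a median of 35 listed CpGs over 438 bp, and those with members had a median of 4 members and at most 34. Because the density counts only CpGs that a library listed, a dense stretch that was read poorly can pass as sparse. The libraries listed 953724 to 1400708 CpG cytosines each, with 10 reads or more. Coverage summed over these cytosines counts a read once for each cytosine it covers. This sum was lower in every Chd8+/- library (32285980 to 39820333) than in every WT library (45498222 to 54818138). Median coverage in each distance bin was 40 to 50 reads per CpG. Replicate 3 of both genotypes stood apart, with 2.58% and 2.56% of coverage on chromosome X against 1.18% to 1.21% in the other 4 libraries. Unconverted cytosines outside CpGs were 0.327% to 0.348% in Chd8+/- and 0.316% to 0.321% in WT, and their part in the differences below was not tested.

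Methylation rose from nearly 0 at the island edge to more than 50% at the end of the shore. The WT mean level was 5.0% ± 0.0669 at 1 to 250 bp and 8.45% ± 0.112 at 251 to 500 bp (SD, n = 3). It was 17.8%, 26.5%, 32.9%, 41%, 46.4% and 51.4% in the next 6 bins of 250 bp. Each of the 7 steps between the 8 shore bins was upward in 6 of 6 samples, by 3.53 to 9.32 points on average. The exact two-sided sign-flip permutation test over the 6 samples gave p = 0.03125, the smallest it allows, and a Benjamini-Hochberg value of 0.0391 over all 15 steps. Here and wherever it is used below, this test covers the spread between samples that read the same CpGs, not the spread among islands.

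**Figure D1:**
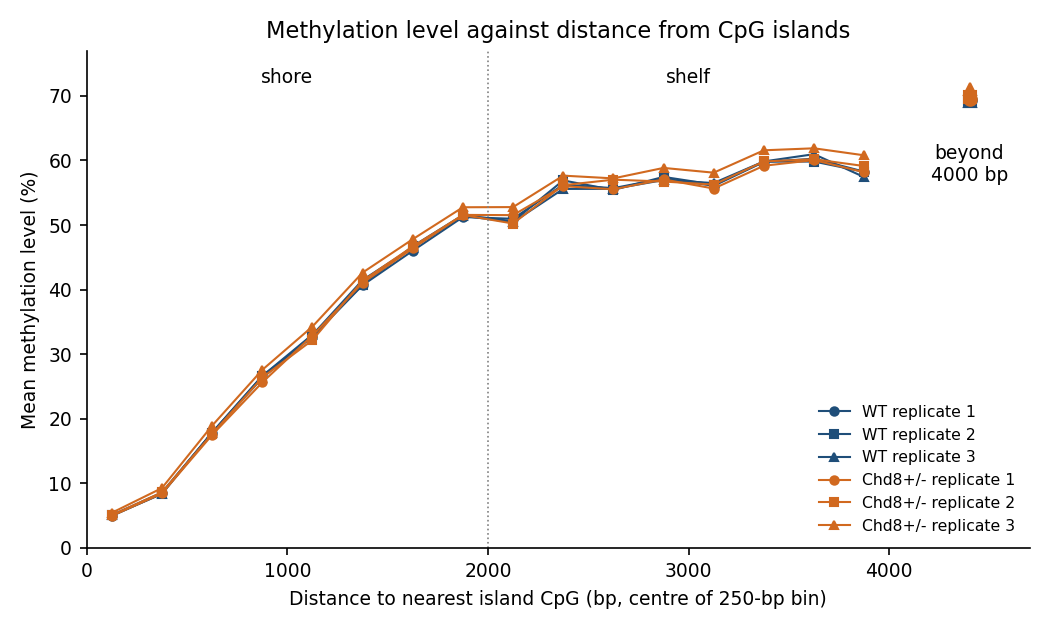
Mean methylation level in percent (y axis) against the distance to the nearest island CpG in bp (x axis, centres of 250-bp bins), with 1 line per sample (WT blue, Chd8+/- orange) and distant CpGs as single points on the right. The lines rise from about 5% in the first bin to over 50% at 2000 bp, flatten in the shelf below the distant level, and lie close together except for Chd8+/- replicate 3 (triangles), which is the highest in all 16 bins.

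In the shelf the curve flattened. From 2001 bp on, the WT bin means were 50.7%, 56.3%, 55.6%, 57.2%, 56.3%, 59.8%, 60.4% and 58.0%. Of the 8 steps from 1751 to 2000 bp outward, 3 were upward in 6 of 6 samples, those reaching 2251 to 2500, 3251 to 3500 and 3501 to 3750 bp. Levels fell in 6 of 6 samples at 3001 to 3250 bp (mean step −0.904) and at 3751 to 4000 bp (mean step −1.86, exact sign-flip permutation, Benjamini-Hochberg value 0.0391 for each of these 5 steps). The step across the limit between shore and shelf, from 1751 to 2000 bp to 2001 to 2250 bp, was −0.585 points and was downward in 5 of 6 samples (p = 0.0625, exact sign-flip permutation).

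The shelf was 35.3 ± 0.327 points (SD, n = 6) above the shore, with single samples at 35.0 to 35.9 points (p = 0.03125, exact two-sided sign-flip permutation). It remained below the distant CpGs in 6 of 6 samples, with shelf minus distant between −13.1 and −12.6 points. The distant CpGs themselves stood at 64.8% in WT at 4001 to 10000 bp, 67.8% at 10001 to 50000 bp and 70.8% farther out. The midpoint between the first bin and the distant level was reached at 1257 ± 8.67 bp in WT and 1257 ± 11.7 bp in Chd8+/- (SD, n = 3 each).

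The mean hides a mixture of unmethylated and methylated CpGs whose proportions shift with distance. At 1 to 250 bp, 93.6% of CpGs had a WT level under 20% and 1.32% had one over 80%. At 1001 to 1250 bp these shares were 53.7% and 17.9%, and at 3751 to 4000 bp they were 26.4% and 43.4%. Among distant CpGs 13.4% were under 20% and 54.2% over 80%. The share between 20% and 80% was 5.10% in the first bin, 28.4% at 1001 to 1250 bp and 28.9% to 33.1% in the shelf bins, against 32.4% among distant CpGs. The median WT level was 0% at 1 to 250 bp, 15.1% at 1001 to 1250 bp and 60.1% at 1751 to 2000 bp. The distant median was 82.9%.

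At the limits of the definition the levels passed over without a sharp break. Within 4000 bp of an island, CpGs of density 10 averaged 11.2% in WT and those of density 11, which are not members, averaged 8.68%. CpGs at 3751 to 4000 bp averaged 58.0% and those at 4001 to 4250 bp averaged 61.7%.

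Local CpG density separated the members at every distance. At 1 to 500 bp, CpGs with 1 to 5 listed CpGs around them averaged 11.6% ± 0.176 in WT, and those with 6 to 10 averaged 5.57% ± 0.0537 (SD, n = 3). At 501 to 1000 bp the levels were 27.2% and 14.3%, at 1001 to 2000 bp 48.9% and 29.1%, and in the shelf 62.2% and 45.8%. Beyond 4000 bp they were 71.8% and 61.8%. The sparser class was higher in 6 of 6 samples in each of these 5 ranges (p = 0.03125, exact two-sided sign-flip permutation). Levels rose with distance within both density classes.

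Shores of the largest islands were the least methylated. The WT shore level was 22.5% at islands of 1 to 20 listed CpGs, 23.3% at 21 to 40, 20.5% at 41 to 80 and 15.8% at over 80. The steps from 21 to 40 CpGs upward were downward in 6 of 6 samples, by 2.89 and 4.65 points, and the smallest islands minus the next class gave −0.805 points (p = 0.03125 each, exact sign-flip permutation). That p does not cover the spread among islands of a class. The islands of over 80 CpGs also had a lower shelf, at 48.4%, than islands of 21 to 40 and 41 to 80 CpGs, at 59.2% and 59.1%.

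The state of the island itself went with that of its shore. Of islands with 3 or more measured island CpGs, 7709 were under 10% in WT, 144 at 10% to 80% and 85 over 80%. These counts include islands without shore CpGs. In WT, shores stood at 20.1% ± 0.0830 in the first class, 50.9% ± 0.478 in the second and 84.3% ± 1.62 in the third (SD, n = 3). The last 2 values rest on 356 and 174 shore CpGs. Chd8+/- differed by 0.290, 0.601 and 0.845 points, with a Benjamini-Hochberg value of 0.9 for each (exact permutation).

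Islands differed widely in how far the unmethylated state reached. In 633 islands both the first 500 bp and the stretch from 1000 to 2000 bp held enough members to compare. The far stretch was more than 20 points higher in 346 of them (54.7%), within 20 points in 278 and more than 20 points lower in 9. In 255 islands (40.3%) both stretches were under 20%. The 2 flanks of an island were only loosely alike. Over 550 islands with 3 or more shore CpGs on each flank, the levels of the flanks correlated with Pearson's r of 0.242 and Spearman's rho of 0.205, as a description of islands that share the same libraries. The flanks differed by more than 30 points at 160 of them.

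Start sites gave the flanks a direction. RefSeq promoters placed 6312 starts within 250 bp of an island CpG, at 4943 islands, of which 4193 had starts on 1 strand only. At these, the shore upstream of the start was more methylated than the shore downstream, on the transcribed side. The upstream shore stood at 24.7%, 24.8% and 24.7% in WT and 24.5%, 24.7% and 26.0% in Chd8+/- (5021 CpGs). The downstream shore stood at 19.2% in each WT sample and at 19.1%, 19.2% and 20.2% in Chd8+/- (5896 CpGs). The lowest upstream value was above the highest downstream one. The difference was 5.57 ± 0.138 points (SD, n = 6), upstream higher in 6 of 6 samples (p = 0.03125, exact two-sided sign-flip permutation, Benjamini-Hochberg value 0.0344 over 11 comparisons of sides).

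The excess on the upstream side was 1.80 points at 1 to 250 bp, 10.5 points at 751 to 1000 bp and 10.6 points at 1251 to 1500 bp, and 1.14 points at 1501 to 2000 bp. At 3001 to 4000 bp it had the opposite sign, −3.01 points, with the upstream side lower in 6 of 6 samples (Benjamini-Hochberg value 0.0344, exact sign-flip permutation). Within 202 islands with 3 or more shore CpGs on both sides, the upstream side averaged 23.6% and the downstream side 18.4%, a mean difference of 5.21 ± 0.670 points (SD, n = 6). Among these islands the upstream side was the higher in 109 and the downstream side in 93. The side difference was 0.0787 points larger in Chd8+/- than in WT (SE 0.120, p = 0.6, exact permutation). This comparison was added after the data were seen.

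**Figure D2:**
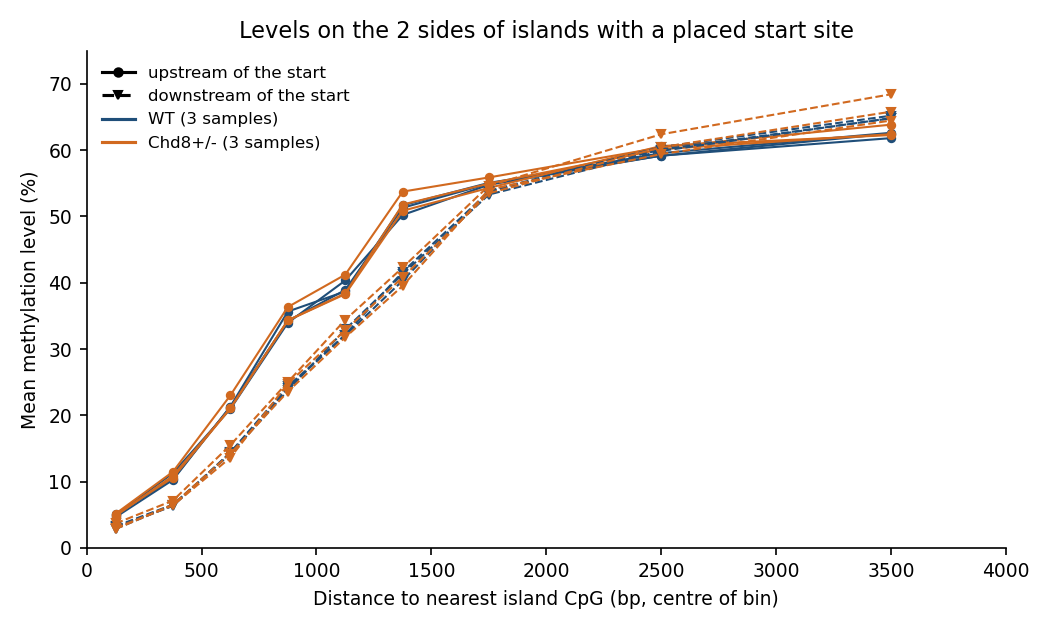
Mean methylation level in percent (y axis) against the distance to the nearest island CpG in bp (x axis, bin centres) at islands with start sites on 1 strand, upstream (solid lines, circles) and downstream (dashed lines, triangles) of the start, 1 line per sample (WT blue, Chd8+/- orange). Within each sample the upstream line lies above the downstream line up to the bin at 1501 to 2000 bp. The mean gap over the samples is at most 10.6 points, and the order is reversed at 3001 to 4000 bp.

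Islands with starts on both strands had shores at 22.5% in WT, close to the 21.8% of islands with starts on 1 strand and the 21.2% of islands without a placed start. Their shelves differed more. The WT shelf level was 72.1% at islands with starts on both strands, 61.5% with starts on 1 strand and 52.0% without a placed start. The distant level was 69.3%, so only the first of these shelves lay above it. No test was made of these 3 classes, which were formed after the data were seen.

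The 6 islands with the most members showed flanks that were mostly unmethylated over most of the distance measured. No start was placed at these islands. The island at chr5:119808350-119809442 had 21 shore CpGs at 1.19% in WT and 11 shelf CpGs at 3.59%. The island at chr13:40891316-40891558 had 19 shore CpGs at 3.91% and 13 shelf CpGs, out to 3882 bp, at 1.06%. At chr5:119825186-119825447 the 19 shore CpGs averaged 12.1% and the 14 shelf CpGs 1.79%, so the flank nearer to the island was the more methylated. In 5 of these 6 islands the shelf lay under 20% in WT, against 56.6% over all shelf CpGs.

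The island at chr11:102358210-102358275 was the exception. Its 24 shore CpGs averaged 50.8% in WT, with 7 under 20% and 7 over 80%, and its 6 shelf CpGs averaged 76.8%. Over all 6316 island shores and shelves of 3 or more members, 5.08% had all 3 Chd8+/- samples above all 3 WT samples and 4.43% had them all below. The genotype groups did not overlap in 1 of the 12 flanks of these 6 islands, which is near that background. It was the shelf of chr5:119808350-119809442, at 4.23%, 2.89% and 3.64% in WT and 2.38%, 0.770% and 2.41% in Chd8+/- (p = 0.1, the smallest possible, exact permutation).

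Among 1598 islands that were under 10% in WT, with at least 5 measured island CpGs and 5 shore CpGs, the median shore level was 9.57%. The shore was under 5% at 615 islands (38.5%) and over 50% at 183 (11.5%), and it was 0% in WT at 27. Erbin, a scaffold protein of cell junctions, had 10 shore CpGs at 0% in all 3 WT samples. The 7 shore CpGs of Nkx1-1, 271 to 965 bp from its island, were also at 0% in WT, and an island on chromosome 18 had 8 shore CpGs at 0% in 6 of 6 samples. At the other end of the range, the island shared by Eif2b1 and Gtf2h3 (a subunit of a general transcription factor) was at 0.244% in WT and its 5 shore CpGs, 815 to 1554 bp away, at 96.5%. The island of Slc38a6 and Trmt5 was at 0.717% and its 8 shore CpGs at 96.0%, and that of the RIKEN gene 4930558K02Rik was at 0.575% with 12 shore CpGs at 96.1%. The printed promoters of Nkx1-1 and Trmt5 are both CpG-dense and lie at nearly unmethylated islands, while their measured flanks lie at the ends of the range. Those flanks were measured at different distances, 271 to 965 bp for Nkx1-1 and 1120 to 1781 bp for Trmt5. The shore CpGs of Erbin lay at 116 to 542 bp, those on chromosome 18 at 266 to 382 bp and those of 4930558K02Rik at 1134 to 1952 bp. The part of distance in this contrast was not tested. These islands were picked by their WT levels, so the values are a description.

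Of 72 genes in 6 lists, 55 had a promoter sequence, 26 were placed and 22 of those had at least 1 shore CpG within 4000 bp of the start. These shore CpGs were taken whichever island they flanked. The shore of 20 of the 22 was under 20% in WT, and 2, Tet1 and Tbp, were over 40%. Over 2496 placed genes with 3 or more shore CpGs the median shore level was 10.4%. The Chd8+/- mean was higher in 9 of the 22, lower in 10 and equal in 3, with a median difference of 0 points, which is also the median over the 2496 genes, of which 49.4% were higher.

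Of 5 cortical neuron genes, 3 were higher and 2 lower in Chd8+/-. Emx1 had 14 shore CpGs on both sides of its start, at 1.97%, 3.07% and 3.81% in WT and 1.97%, 3.74% and 1.47% in Chd8+/-. The groups overlapped (p = 0.5, exact permutation). The 6 shore CpGs of Cux1 stood at 8.46%, 7.37% and 8.40% in WT and at 9.54%, 18.6% and 18.5% in Chd8+/-. Each Chd8+/- sample lay above the highest WT sample, 2 of them by about 10 points, and the mean difference was 7.45 points (p = 0.1, the smallest possible, exact permutation). Cux1 was the only one of the 22 genes whose groups did not overlap. Over the 2496 genes, 4.13% had all 3 Chd8+/- samples above all 3 WT samples and 4.21% had them all below, so 1 of 22 is near the background. The 2496 genes needed 3 or more shore CpGs, whereas several of the 22 had only 1 or 2, so the shares are not fully alike. These shore CpGs had 16 to 98 reads per sample. Bcl11b, a factor of deep-layer neurons, was at 1.56% ± 1.09 in WT and 1.96% ± 1.15 in Chd8+/-, and Cux2 at 9.74% ± 5.35 and 10.5% ± 1.42 (SD, n = 3), with overlapping groups in both.

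The median WT shore level was 0.997% over 4 interneuron genes, against 8.08% over 5 cortical neuron genes and 1.22% over 8 chromatin genes. Dlx1, which specifies interneurons and was placed at chr2:71359539-71359838, had 12 shore CpGs, with a WT mean of 4.28% ± 4.32 and a Chd8+/- mean of 4.64% ± 2.87 (SD, n = 3). Dlx2, its neighbour and partner, had 2 at 1.99% in WT. Npy, a neuropeptide, and Lhx6, an interneuron factor, had 2 and 1 shore CpGs at 0% in all 6 samples. Olig2, the factor of the oligodendrocyte lineage, was the only glial gene measured and had 5 shore CpGs at 4.87% ± 4.64 in WT and 4.19% ± 0.703 in Chd8+/-.

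The 8 chromatin genes ran from 0% to 43.8% in WT, and Chd8+/- was higher in 2, lower in 5 and equal in 1. Kmt2a had 9 shore CpGs, each at 1.01% or less in WT, with group means of 0.112% and 0.0722%. The measured CpGs of density over 10 within 500 bp of its start were at 0.949% in WT. Its shore extended this state to 1745 bp past the start. Tet2 and Tet3, enzymes of the same family as Tet1, were at 0.208% (4 CpGs) and 5.49% (5 CpGs) in WT. Tet1 had 6 shore CpGs, 1341 to 1993 bp downstream of its start, that averaged 49.5%, 38.6% and 43.3% in WT and 43.6%, 43.3% and 42.4% in Chd8+/-. Single CpGs there ran from 0% to 93.6% in WT, with 3 under 20% and 2 over 80%. The measured CpGs of density over 10 within 500 bp of the Tet1 start were at 0.921% in WT. The genotype difference was −0.669 points (p = 0.9, exact permutation).

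Of 3 Wnt genes with shore CpGs, 1 was higher and 2 were lower in Chd8+/-. Ctnnb1, which encodes beta-catenin and was placed at chr9:120762216-120762515, had 14 shore CpGs at 9.83%, 7.56% and 8.11% in WT and 8.48%, 14.2% and 11.8% in Chd8+/-. The groups overlapped (difference 2.97 points, p = 0.2, exact permutation). Wnt3a, a secreted ligand, had 5 shore CpGs, with a WT mean of 16.3% ± 2.08 and a Chd8+/- mean of 14.4% ± 1.36 (SD, n = 3). Tcf7l2, a transcription factor of the pathway, had 1 shore CpG at 6.84% in WT. Tbp, the TATA-binding protein, was the only housekeeping gene measured, with 2 shore CpGs at 65.9% ± 9.75 in WT and 73.4% ± 9.65 in Chd8+/-, one of them over 80%.

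**Figure D3:**
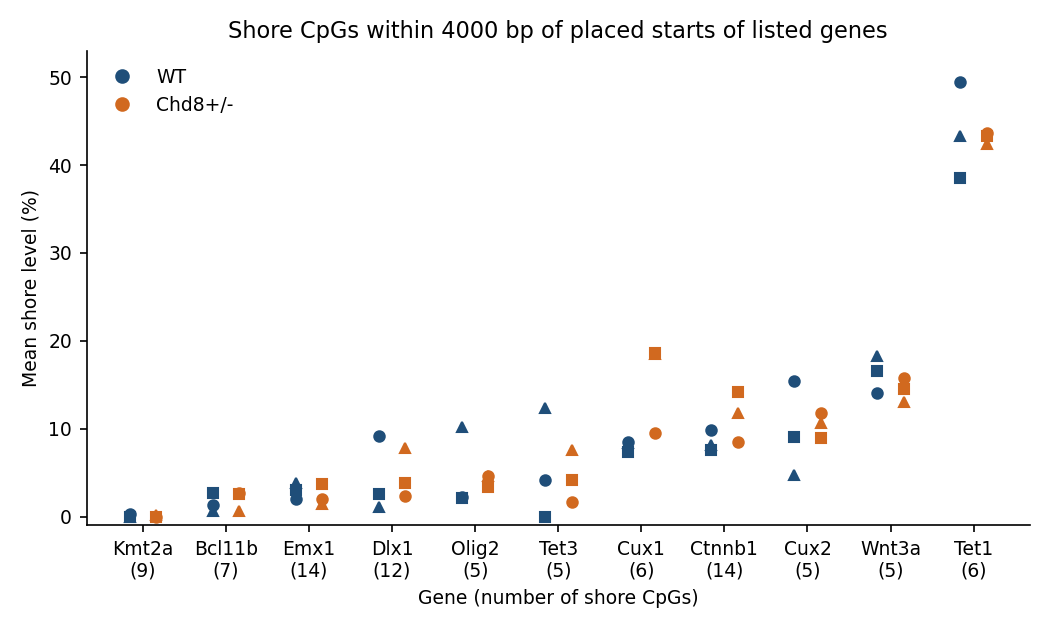
Mean shore methylation level in percent (y axis) of the 11 listed genes with at least 5 shore CpGs (x axis, number of CpGs in brackets), 1 symbol per sample (WT blue, Chd8+/- orange, with circle, square and triangle for replicates 1, 2 and 3). Tet1 stands near 43% and the other genes under 20%, and Cux1 is the gene whose 2 groups do not overlap.

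The genotypes did not differ detectably in the level of shores or shelves. Shores of the WT samples were methylated at 21.4%, 21.6% and 21.5%, and those of the Chd8+/- samples at 21.3%, 21.5% and 22.5%. Chd8+/- replicate 3 was above the others and the groups overlapped. The mean difference was 0.275 points (SE 0.381, p = 0.9, exact two-sided permutation), and it was −0.101 points without Chd8+/- replicate 3. Shelves of the WT samples were at 56.6%, 56.6% and 56.5%, and those of the Chd8+/- samples at 56.5%, 56.8% and 58.4%, again with only replicate 3 standing out. The difference was 0.643 points (SE 0.605, p = 0.4, exact permutation) and 0.0448 points without that replicate. With CpGs weighted by their reads the differences were 1.22 points in shores (p = 0.7) and 1.94 points in shelves (p = 0.4, exact permutation).

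**Figure D4:**
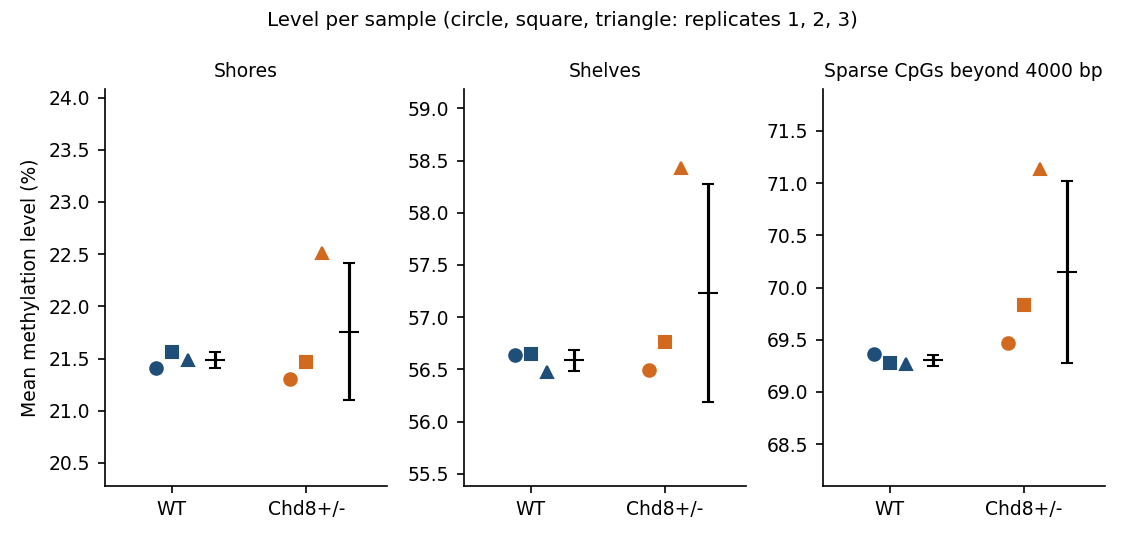
Mean methylation level in percent (y axes, which span a few points each and do not start at 0) of shores, shelves and distant CpGs, with 1 symbol per sample (circle, square and triangle for replicates 1, 2 and 3; WT blue, Chd8+/- orange) and the mean ± SD of each group in black. In shores and shelves only Chd8+/- replicate 3, at 22.5% and 58.4%, stands above the WT samples by more than their spread, and in distant CpGs all 3 Chd8+/- samples are above the WT samples.

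The unweighted contrast between shores and distant CpGs was wider in the 3 Chd8+/- samples than in the 3 WT samples, without an exact permutation p below 0.1. Distant CpGs were at 69.4%, 69.3% and 69.3% in WT and 69.5%, 69.8% and 71.1% in Chd8+/-, groups that did not overlap (difference 0.844 points, p = 0.1, exact permutation). The difference was 0.351 points without Chd8+/- replicate 3, and with reads as weights it was 1.81 points and the groups overlapped (p = 0.2, exact permutation). Within each sample, shore minus distant was −48.0, −47.7 and −47.8 points in WT and −48.2, −48.4 and −48.6 points in Chd8+/-. No Chd8+/- sample overlapped with WT. The difference between the genotypes was −0.569 points (SE 0.148, p = 0.1, the smallest that an exact permutation of 3 samples against 3 allows), and it was −0.452 points without Chd8+/- replicate 3. With reads as weights it was −0.589 points and the groups overlapped (p = 0.3, exact permutation). For shelf minus distant the genotype difference was −0.201 points (p = 0.3), and the step from shore to shelf was 0.368 points larger (p = 0.2, exact permutation for both). The 2 differences became −0.306 and 0.146 points when Chd8+/- replicate 3 was left out.

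In the 250-bp bins, the Chd8+/- mean was the higher in all 16, by 0.0128 points at 751 to 1000 bp to 1.40 points at 3751 to 4000 bp, where it was 0.682 points without Chd8+/- replicate 3. The Benjamini-Hochberg values over the 16 bins were 0.96 to 1. Chd8+/- replicate 3 was the highest of the 6 samples in 16 of 16 bins. Replicate 1 was above the WT mean in 4 bins and replicate 2 in 8, and without replicate 3 the Chd8+/- mean was the higher in 7 of 16 bins. Leaving it out turned the difference negative or reduced it by more than 1.5 times in 15 of the 16. The groups did not overlap in 1 bin, 1751 to 2000 bp, at 51.2%, 51.5% and 51.4% in WT and 51.6%, 51.6% and 52.8% in Chd8+/- (difference 0.562 points, SE 0.407, p = 0.1, exact permutation). This difference was 0.165 points without Chd8+/- replicate 3. Among the 24 bins of 250 bp from 4001 to 10000 bp, the groups were apart with Chd8+/- the higher in 29.2% and with Chd8+/- the lower in 0%, so 1 of 16 was not above the share in that reference.

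**Figure D5:**
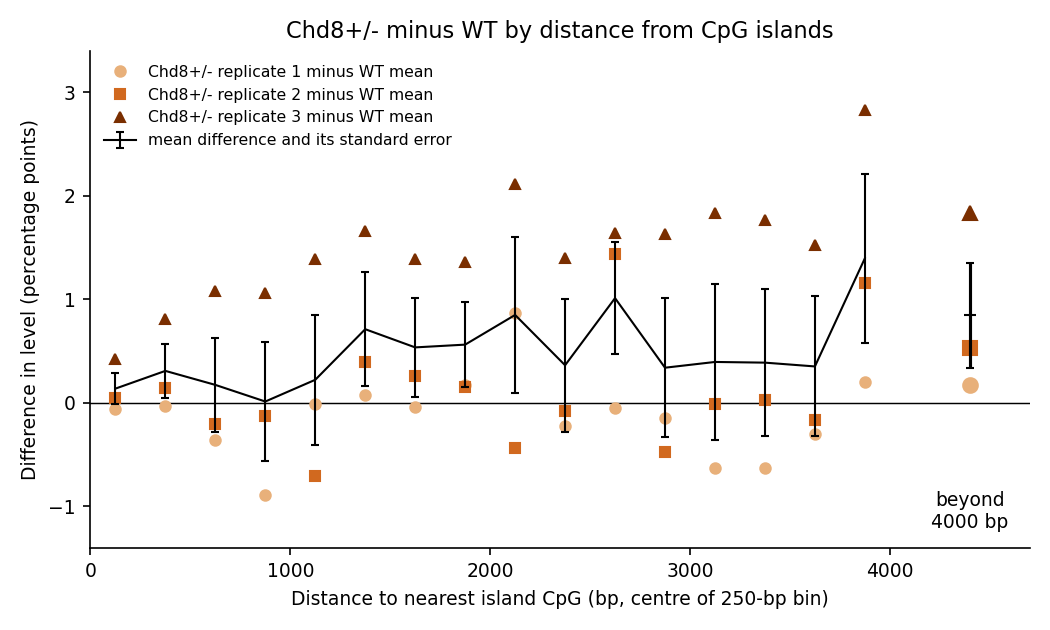
Difference in methylation level between Chd8+/- samples and the WT mean in percentage points (y axis) against the distance to the nearest island CpG in bp (x axis, centres of 250-bp bins, distant CpGs on the right), with 1 symbol per Chd8+/- sample and the mean difference with its standard error in black. Replicate 3 is above 0 in all 16 bins, whereas replicates 1 and 2 scatter around 0.

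Of 47 overlapping subsets of the members by density, distance, island size, island level and start site, 3 had groups that did not overlap, all with Chd8+/- the higher. In the 24 bins of 250 bp from 4001 to 10000 bp that share was 29.2%, so 3 of 47 was not above it. All autosomal CpGs together were also apart (difference 0.599 points, 0.252 points without Chd8+/- replicate 3), as were the island CpGs (0.0645 and 0.0831 points). Without that replicate the Chd8+/- mean was the higher in 18 of the 47 subsets. One of the 3 was the upstream shelf, at 61.0%, 60.4% and 60.7% in WT and 61.4%, 61.2% and 62.0% in Chd8+/- (2147 CpGs, difference 0.836 points, 0.597 points without Chd8+/- replicate 3, p = 0.1, exact permutation). Its part at 2001 to 3000 bp was apart too, with a difference of 1.10 points, and 1.09 points without that replicate. Its part at 3001 to 4000 bp overlapped, with 0.533 points (p = 0.6, exact permutation) and 0.0327 points. The downstream shelf also overlapped, with 0.915 points (p = 0.6, exact permutation) and −0.0338 points. The shelves of islands of 1 to 20 CpGs were the third such subset (difference 0.957 points, 0.458 points without that replicate). By chromosome, the shore mean was higher in Chd8+/- on 17 of 19 autosomes and lower on chromosomes 6 and 12, and the shelf mean was higher on 17 and lower on chromosomes 7 and 15. The chromosomes share the same 6 libraries, and without Chd8+/- replicate 3 the shore mean was higher on 8 and the shelf mean on 12 of the 19. No chromosome's p was below 0.1, the smallest possible. The WT shore level ran from 17.3% on chromosome 6 to 25% on chromosome 17, and the WT shelf level from 50.2% on chromosome 18 to 64.9% on chromosome 16.

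No single shore or shelf CpG passed the test between genotypes. On simulated data with known changes, edgeR also passed no CpG or window at the adjusted threshold. The 0 calls of edgeR below therefore do not show that levels were equal. With edgeR's quasi-likelihood test over 418119 CpGs, 0 of 33948 testable members had an adjusted p under 0.05, as did 0% of all CpGs, and the smallest adjusted p among members was 0.765. At an unadjusted p under 0.05, 782 members were higher in Chd8+/- (2.30%, against 2.09% of all CpGs) and 645 were lower (1.9%, against 1.5%). With limma, on the log2 ratio of methylated to unmethylated reads, the test also called 0 members and 0% of all CpGs. At an unadjusted p under 0.05 it had 1005 members higher (2.96%, against 3% of all CpGs) and 647 lower (1.91%, against 2.17%), so both shares were at or below the background. In windows of 1000 bp, 0 of 5061 windows in which members were at least as many as other CpGs were called (0% of 68160 windows), with 108 higher (2.13%, against 2.08%) and 78 lower (1.54%, against 1.68%) at an unadjusted p under 0.05. limma called 0 of these windows (0% of all), with 168 higher (3.32%, against 3.2%) and 98 lower (1.94%, against 2%) at an unadjusted p under 0.05. The 3 members with the smallest edgeR p differed by −2.60 points (chr9:91260324-91260325, 305 bp from its island), 4.70 points (chr2:51036666-51036667) and −2.31 points (chr5:139536393-139536394), each with 1 genotype at 0% in all 3 samples and edgeR adjusted p-values of 0.765 to 1. The 3 such windows differed by 10.3 points (chr17:34157001-34158000), 0.821 points (chr11:44508001-44509000) and −1.34 points (chr4:132002001-132003000), each with an edgeR adjusted p of 1.0. The median difference of the tested members was 0.153 points, against 0.438 points over all tested CpGs.

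The groups did not overlap, with Chd8+/- the higher, at 1281 members (3.10%, against 3.48% of all CpGs) and, with Chd8+/- the lower, at 1100 (2.66%, against 2.32%). In shores the shares were 2.68% and 2.50%, and in shelves 4.16% and 3.06%. By this measure shores were below the background in the first share and near it in the second, and shelves were above it in both. CpGs at 0% or 100% throughout can never separate, and their part in these shares was not tested. At an unadjusted edgeR p under 0.05 the order was the other way round. Shores had 2.57% higher and 2.17% lower in Chd8+/-, and shelves 1.72% and 1.32%, against 2.09% and 1.5% of all CpGs. Which part stood above the background thus depended on the measure.

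The member CpG with the smallest p lay at chr9:91260324, 305 bp from an island CpG. It stood at 2.73%, 1.88% and 3.19% in WT and at 0% in the 3 Chd8+/- samples, from 237 to 372 reads per sample. Its edgeR p was 9.73e-06 before adjustment and 0.765 after adjustment over all CpGs. At chr2:51036666, 756 bp from an island CpG, the level was 0% in the 3 WT samples and 3.51%, 4.69% and 5.91% in Chd8+/- (adjusted p = 0.768 by edgeR). At chr5:139536393, 2500 bp from an island CpG, it was 2.18%, 2.79% and 1.96% in WT and 0% in Chd8+/- (adjusted p = 1 by edgeR). All 3 are differences of a few points near 0%, in CpGs picked for their small p.

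Of the windows, chr17:34157001-34158000 held 3 members and stood at 84.8%, 93.9% and 89.8% in WT and 99.4%, 100% and 100% in Chd8+/-. The window at chr11:44508001-44509000, with 5 members and 1000 to 1872 reads per sample, was at 0% to 0.0688% in WT and 0.748% to 1% in Chd8+/-. The window at chr4:132002001-132003000, with 7 members, was at 1.27% to 1.46% in WT and 0% in Chd8+/-. The adjusted p was 1.00 for each of these 3 windows with edgeR.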

How the data were processed

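The deposited tables list, per library, each CpG cytosine with its strand, its coverage as a count of reads, and the percent of reads with C and with T, per the file headers. The authors' tables hold no cytosine under 10 reads. Bismark 0.20.0, Trim Galore 0.4.4, the build mm39 and SAMtools 1.9 are named in the submitters' processing notes. Their settings and any deduplication are not given in the sources used here. Unconverted cytosine was taken from the authors' conversion statistics. Without molecular identifiers, reads are not independent molecules.

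Strands were merged by adding reads, and methylated reads were recovered as coverage times percent, whole within 0.02 for over 99.9% of cytosines. Autosomal CpGs needed 10 reads in all 6 samples. Levels per sample are unweighted means over CpGs, compared by exact two-sided permutation (3 against 3) or sign-flip over 6 samples. Read counts of all CpGs and of 1000-bp windows with 3 or more CpGs were tested with edgeR 4.0.16 in R 4.3.3, with Benjamini-Hochberg adjustment over the whole table and limma 3.58.1 as an alternative (1 read added to each count before log2). Both were tested on simulated data, as were the exact tests. For single CpGs the size of change that this check required was raised after a first run recovered too few of the smaller changes. In that check edgeR passed no CpG or window at the adjusted threshold, so 0 calls does not show that levels were equal. Other steps ran in Python 3.11.15 with pandas 2.3.3, scipy 1.17.1, numpy 2.4.6 and matplotlib 3.10.9.

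The gene table at hand follows GRCm38.p6, so no coordinates were taken from it. Of 32851 RefSeq promoter sequences (250 bases before to 50 after the start), 15982 had 8 or more CpGs, and a promoter was placed where the listed mm39 CpGs were all among its own, numbered at least 8 and made up at least 40% of them. This placed 7521 at 1 position, 5 of them on another chromosome than RefSeq's, which were dropped, and left 6745 genes. These limits were chosen after the counts under 5 settings were seen, which placed 1537 to 8906 promoters with 0 to 59 on another chromosome. Methylation was not used in that choice. The rule for genes asked for an mm39 table, so naming genes this way departs from it.

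The members and lists were chosen with earlier results of these data known. By the rule for named items, the text gives the 3 CpGs and 3 windows with the smallest p, the 6 islands with the most members, the 3 lowest and 3 highest shores, and up to 4 genes per list with the most shore CpGs. Classes by density, island size and side of the start, the printed promoters and the genes in the plot were chosen after the data were seen. Same-numbered samples were not treated as pairs. Their deviations over islands correlated at 0.00552, 0.0192 and 0.0266, and those of samples with other numbers at −0.0331 to 0.0145. These values cannot show whether the numbers mark pairs. Alternatives are listed with their effect in the closing section.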

Additional observations from a re-analysis of the deposited data

How the results depend on the processing

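The rise from shore to shelf kept its sign and size under each alternative run, from 31.1 points (density 5 or less) to 38.3 points (mean per island first). With fewer samples its p could not reach the threshold: it was 35.2 to 35.3 points with 1 sample left out (p = 0.0625), 35.2 without both samples numbered 3 (p = 0.125) and 35.3 with the replicate number as a block (p = 0.25), all exact sign-flip permutations. The upstream minus downstream shore gave 5.52 to 5.60 points, 5.52 and 5.57 points under the same 3 settings, with the same p-values, and 10.2 points at density 5 or less. Of the 36 differences tested by sign-flip, the 32 at the smallest p each had an exact p of 0.25 with the replicate block, the smallest that 3 pairs allow. In the exact genotype comparisons the block could change no call, as their p cannot be below 0.1 without it or 0.25 with it.

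In shore minus distant, the genotype difference stayed negative throughout (−0.676 to −0.452 points with 1 sample left out, −0.436 without both samples numbered 3, −0.446 at density 5 or less). The genotype difference of shores was −0.101 to 0.504 points with 1 sample left out and −0.102 without both samples numbered 3. That of shelves was 0.0448 to 1.01 and −0.0119 points, and that of the step from shore to shelf was 0.0897 points without both. For shelf minus distant the genotype difference was 0.131 points with reads as weights. That of the half-rise distance was −5.93 to 5.75 bp with 1 sample left out, 0.992 bp without both samples numbered 3, 7.88 bp per island first and 17.4 bp at density 5 or less. For shores of islands under 10% it was −0.0362 to 0.506 and −0.0451 points, for those at 10% to 80% −0.389 to 1.25 and −0.348 points, and for those over 80% −0.0870 to 1.38 and −0.535 points. The cause was not tested.

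Bins with a higher Chd8+/- mean numbered 7 to 16 of 16 with 1 sample left out and 8 without both samples numbered 3. Without both, the differences from 1 to 250 bp outward that turned negative were −0.000453, −0.271 (501 to 750 bp), −0.615, −0.320, −0.484 (2251 to 2500 bp), −0.432 (2751 to 3000 bp), −0.210 and −0.280 points. With 1 sample left out, these bins ran from −0.00487 to 0.234, −0.280 to 0.439, −0.509 to 0.462, −0.359 to 0.688, −0.154 to 0.691, −0.309 to 0.746, −0.322 to 0.907 and −0.298 to 0.897 points, and 3501 to 3750 bp from −0.235 to 0.679 points, each lowest without Chd8+/- replicate 3. Without WT replicate 3, 751 to 1000 bp was at −0.0932 points. The bin at 1 to 250 bp was at −0.0437 points for islands of density over 30, and that at 751 to 1000 bp at −0.0371 points at density 5 or less and −0.0109 points with islands of 10 or more CpGs. edgeR called 0 members under each alternative run with it, and limma, run only on the main set with all 6 samples, also called 0. A CpG at the minimum of 10 reads takes levels only in steps of 10 points, and 3 samples against 3 cannot give an exact p below 0.1.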

Other observations

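Chromosome X was left out of the members, and its island flanks set both replicate 3 libraries apart. The level of its 377 shore CpGs was 39.1% (WT) and 43.2% (Chd8+/-) in these 2 libraries and 17.0% to 18.3% in the other 4. Its 110 shelf CpGs were at 49.9% and 53.7%, against 33.4% to 35.7%. At 501 to 1000 bp the levels were 36.1% and 40.6%, against 10.3% to 11.1%, the widest gap of the 4 distance ranges. Sparse CpGs beyond 4000 bp on chromosome X differed less, at 75.8% and 77% against 70.5% to 70.7%. The labels give no sex.

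In the 4 libraries with the lower share of coverage on chromosome X, the X-linked shelf, at 33.4% to 35.7%, lay below the autosomal shelf of the same libraries, at 56.5% to 56.8%. The X-linked shore, at 17.0% to 18.3%, was closer to the autosomal 21.3% to 21.6%.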
